A study of Mus musculus with 6 samples.

Results

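The miR-7 family is a small group of miRNAs of neurons and of pancreatic endocrine cells. Its members in the sEV libraries were taken as every listed entry whose name begins with mmu-miR-7a or mmu-miR-7b, and 4 of the 718 listed entries met this rule: mmu-miR-7a-5p, mmu-miR-7b-5p, mmu-miR-7a-1-3p and mmu-miR-7a-2-3p. Small RNA was sequenced from small extracellular vesicles (sEVs) released by primary mouse islets in culture, with 3 libraries of sEVs from islets of mice on a normal chow diet (NCD; nid-sEVs) and 3 from islets of mice on a high-fat diet (HFD; aid-sEVs). All mice were labelled as C57/B6J with the genotype WT, so the groups shared strain and genotype and differed in diet. The diets began at 8 weeks of age, HFD feeding lasted 9 weeks by the study's general description of the model, the islets were kept in culture for 48 hours, and 5 ng of RNA went into each library. The islets hold several cell types, and the vesicles were not sorted by cell of origin.

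A mature miRNA guides the silencing complex to messenger RNAs that pair with its seed, the bases near its 5′ end. In β cells, miR-7 is known to restrain proliferation through components of the mTOR pathway and to lower glucose-stimulated insulin secretion, and the circular RNA Cdr1as is a known partner that carries many sites for it. Each miRNA hairpin yields a 5p arm and a 3p arm, and in the miR-7 hairpins the 5p arm is the guide strand.

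The question asked of these data was how the near-identical miR-7a-5p and miR-7b-5p compared between nid-sEVs and aid-sEVs. Their mature sequences from RefSeq (GRCm38.p6) are shown because their reads can be told apart by little more than a single base. Capitals mark the seed (bases 2 to 8 from the 5′ end) and base 10.
miR-7a-5p: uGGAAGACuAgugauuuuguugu
miR-7b-5p: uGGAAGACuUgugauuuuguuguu
Over the 23 bases that both arms have, 22 were identical. The only substitution was A10U, with miR-7a-5p as the reference and positions counted from the 5′ end, and miR-7b-5p had a further base at its 3′ end. Both arms carry the seed GGAAGAC, and no other mature mouse miRNA in the RefSeq table had it. Reads of such copies may be divided between them in counting. The rule by which reads were assigned to either arm is not given in the sources used here, so the split between miR-7a-5p and miR-7b-5p carries that uncertainty throughout.

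The 3p arms differ more and are shown for that reason, with bases 2 to 8 in capitals. All 4 members matched RefSeq. The 3p arm of miR-7b is in RefSeq as well but was not among the listed entries.
miR-7a-1-3p: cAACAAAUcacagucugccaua
miR-7a-2-3p: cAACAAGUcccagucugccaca
miR-7b-3p: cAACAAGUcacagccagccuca
The 3p arms of the miR-7a hairpins differed at 3 of 22 bases, which from miR-7a-1-3p to miR-7a-2-3p are A7G, A10C and U21C. A read of a 3p arm therefore points to a single hairpin, while a read of miR-7a-5p can come from either of its hairpins, and their contributions to miR-7a-5p cannot be told apart.

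The hairpins lie on 3 chromosomes of GRCm38.p6. Mir7-1 is at chr13:58392779-58392886 on the minus strand, inside the protein-coding gene Hnrnpk (chr13:58391142-58403343, same strand), which encodes an RNA-binding protein. The hairpin is intronic, since 12 annotated Hnrnpk transcripts run across it and none has an exon there. Mir7-2 is at chr7:78888277-78888373 on the plus strand and overlapped no other annotated gene, with the nearest protein-coding gene, Aen, 7481 bases away. Mir7b is at chr17:56242988-56243098 on the plus strand, also outside other annotated genes, with Fem1a as the nearest protein-coding gene at 13712 bases. No other annotated miRNA hairpin lay within 10 kb of any of them. The hairpins are printed with both mature arms in capitals, 5′ to 3′, because they show the identical 5p arm of Mir7-1 and Mir7-2 in different surroundings.
Mir7-1: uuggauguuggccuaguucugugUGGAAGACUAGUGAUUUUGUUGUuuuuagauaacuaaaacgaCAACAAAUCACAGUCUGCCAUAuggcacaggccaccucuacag
Mir7-2: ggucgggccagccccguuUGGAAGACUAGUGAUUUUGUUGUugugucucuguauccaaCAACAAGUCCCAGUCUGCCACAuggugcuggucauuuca
Mir7b: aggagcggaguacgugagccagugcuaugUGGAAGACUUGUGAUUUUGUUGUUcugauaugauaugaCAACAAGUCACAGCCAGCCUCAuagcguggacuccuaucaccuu

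The libraries held 50534 to 129152 reads in nid-sEVs and 122266 to 519315 reads in aid-sEVs. RPM, the unit of the levels, divides the reads of an entry by the total of its library and scales all libraries to the same sum. Reads were recovered from the RPM values, and a floor of 3 reads, the number that a count of 0 still allows, corresponds to 23.2 to 59.4 RPM in nid-sEVs and 5.78 to 24.5 RPM in aid-sEVs. Unnamed entries made up 33.4% of nid-sEV replicate 1 and 6.61% to 9.45% of each other library. Intervals and floors cover counting error only, since copies made by PCR are not independent molecules. The study's general statement is that its experiments had biological replicates, and the labels do not say which mice or cultures gave each library. The p-values measure the spread between these libraries. The labelled tissue was checked against miR-375-3p, miR-184-3p and the miR-7 5p arms as endocrine markers, of which the 5p arms are members of the family themselves, and all 4 were detected in every library, with summed levels of 74718 to 360886 RPM in nid-sEVs and 164821 to 186134 RPM in aid-sEVs. A level in such vesicles does not tell fewer cells of a type apart from less RNA per cell.

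In nid-sEVs, miR-7a-5p was the more abundant 5p arm in all 3 libraries, and in aid-sEVs miR-7b-5p was the more abundant in all 3. The mean level of miR-7b-5p was up-regulated 3.59-fold in aid-sEVs. That of miR-7a-5p was at 0.890 of its nid-sEV mean and did not pass the test.

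For miR-7b-5p, nid-sEV replicates 1, 2 and 3 held 508, 235 and 189 reads, and aid-sEV replicates 1, 2 and 3 held 6109, 5222 and 1687 reads. Its levels were 3933, 3578 and 3740 RPM in nid-sEVs and 11764, 14825 and 13798 RPM in aid-sEVs. The nid-sEV libraries lay close together, the aid-sEV libraries were all high, and the groups did not overlap. Even the nearest libraries were far apart, with 95% Wilson intervals of 3606 to 4290 RPM in nid-sEV replicate 1 and 11474 to 12060 RPM in aid-sEV replicate 1. The means were 3751 ± 178 RPM in nid-sEVs and 13462 ± 1558 RPM in aid-sEVs (SD, n = 3). On the log2(RPM + 1) scale the difference was 1.84 (SE 0.27, 95% interval 1.19 to 2.48, adjusted p = 0.010 by limma over all 718 entries). Calls required an adjusted p below 0.05 together with a change of more than 1 on the log2 scale, and by these criteria 15.6% of all entries were up-regulated in aid-sEVs, and among the 219 entries detected in all 6 libraries 10% were. Every aid-sEV library was above every nid-sEV library for 24.2% of all entries and for 20.5% of those detected in all libraries.

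The increase of miR-7b-5p was also called in the recovered reads by the other tools. Its log2 fold change was 1.66 with edgeR's quasi-likelihood test (adjusted p = 0.030), where 19.6% of the 245 entries tested were up-regulated. With edgeR's exact test it was 2.31 (adjusted p = 0.0088, 10.6% of entries up-regulated), and with DESeq2 1.89 (adjusted p = 0.00028, 14.9% of 436 entries). The call did not hold without nid-sEV replicate 2, where the log2 fold change was 1.80 and the adjusted p 0.051 by limma. Depth differed between the groups. With the reads of every library thinned to the depth of the smallest, the log2 fold change of miR-7b-5p was 1.81 (SE 0.17, adjusted p = 0.011 by limma), and its call held. Thinning evens out read numbers only, and other differences that may go with depth were not tested.

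For miR-7a-5p, nid-sEV replicates 1, 2 and 3 held 1730, 767 and 393 reads, and the aid-sEV replicates 4660, 3140 and 1387 reads. Its levels were 13395, 11679 and 7777 RPM in nid-sEVs and 8973, 8914 and 11344 RPM in aid-sEVs. The groups overlapped, since the highest and the lowest of the 6 levels were both in nid-sEVs and all 3 aid-sEV libraries lay between them. The means were 10950 ± 2879 RPM in nid-sEVs and 9744 ± 1386 RPM in aid-sEVs (SD, n = 3), and the log2 difference was -0.14 (SE 0.32, 95% interval -0.91 to 0.63, adjusted p = 0.81 by limma). The interval leaves room for a change of either sign of less than a doubling, so the test does not show that miR-7a-5p was equal in both groups. The sign itself turned with the scaling, to 0.36 under TMM scaling of the RPM values and 0.033 when libraries were centred on entries that all of them detected.

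The spread within each group is given beside the spread from counting alone. The coefficient of variation of miR-7b-5p over the nid-sEV libraries was 4.74%, where counting error alone would give 6.14%, and that of miR-7a-5p was 26.3%, against 3.48% from counting. In aid-sEVs the coefficients were 11.6% for miR-7b-5p and 14.2% for miR-7a-5p, with counting errors of 1.81% and 2.18%. With 3 libraries a group these coefficients are imprecise, and the difference in spread between the arms was not tested.

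**Figure D1:**
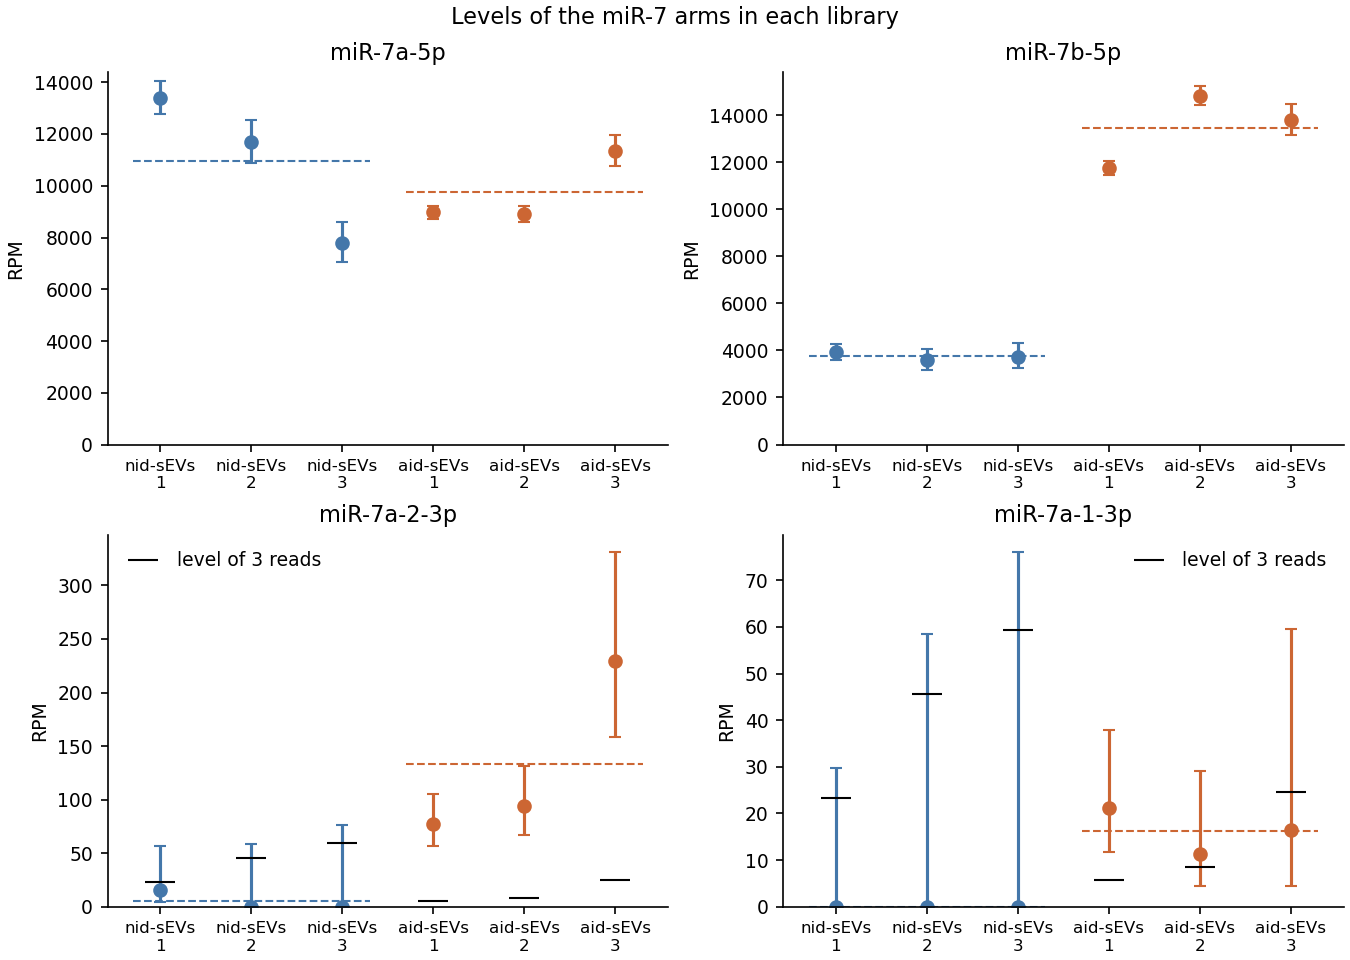
Level of each listed miR-7 arm in RPM (linear axis from 0) in the 3 nid-sEV libraries (blue) and the 3 aid-sEV libraries (orange), with points for the libraries, bars for 95% Wilson intervals, dashed lines for group means and, in the panels of the 3p arms, black marks for the level of 3 reads. The 3 aid-sEV points of miR-7b-5p, between 11764 and 14825 RPM, lie above all nid-sEV points, those of miR-7a-5p lie among them, and those of miR-7a-1-3p lie under every nid-sEV mark of 3 reads.

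Within a library, the share of miR-7b-5p among the reads of both 5p arms does not depend on the scaling of that library. It was 22.7% in nid-sEV replicate 1 (95% Wilson interval 21.0% to 24.5%, of 2238 reads), 23.5% in replicate 2 (20.9% to 26.2%, of 1002 reads) and 32.5% in replicate 3 (28.8% to 36.4%, of 582 reads). In aid-sEVs it was 56.7% in replicate 1 (55.8% to 57.7%, of 10769 reads), 62.4% in replicate 2 (61.4% to 63.5%, of 8362 reads) and 54.9% in replicate 3 (53.1% to 56.6%, of 3074 reads). The lowest aid-sEV share stood well above the highest nid-sEV share, which was that of the shallowest library. The mean share was 26.2 ± 5.44% in nid-sEVs and 58.0 ± 3.95% in aid-sEVs (SD, n = 3). As a ratio, miR-7b-5p was at 0.294, 0.306 and 0.481 of miR-7a-5p in the nid-sEV replicates and at 1.31, 1.66 and 1.22 times its level in the aid-sEV replicates.

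The difference in change between the arms was tested on the log2 of this ratio. The log2 ratio of miR-7b-5p to miR-7a-5p was -1.51 ± 0.39 in nid-sEVs and 0.47 ± 0.24 in aid-sEVs (SD, n = 3), a difference of 1.98 (SE 0.27) or 3.94-fold. All 3 aid-sEV libraries were above all 3 nid-sEV libraries, with p = 0.10 in a two-sided exact permutation test, the smallest p that 3 libraries against 3 allow. Adjusted over the 3 ratios tested, it was 0.15. With 3 libraries a group, this permutation test therefore cannot bring the difference under 0.05, whatever its size.

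**Figure D2:**
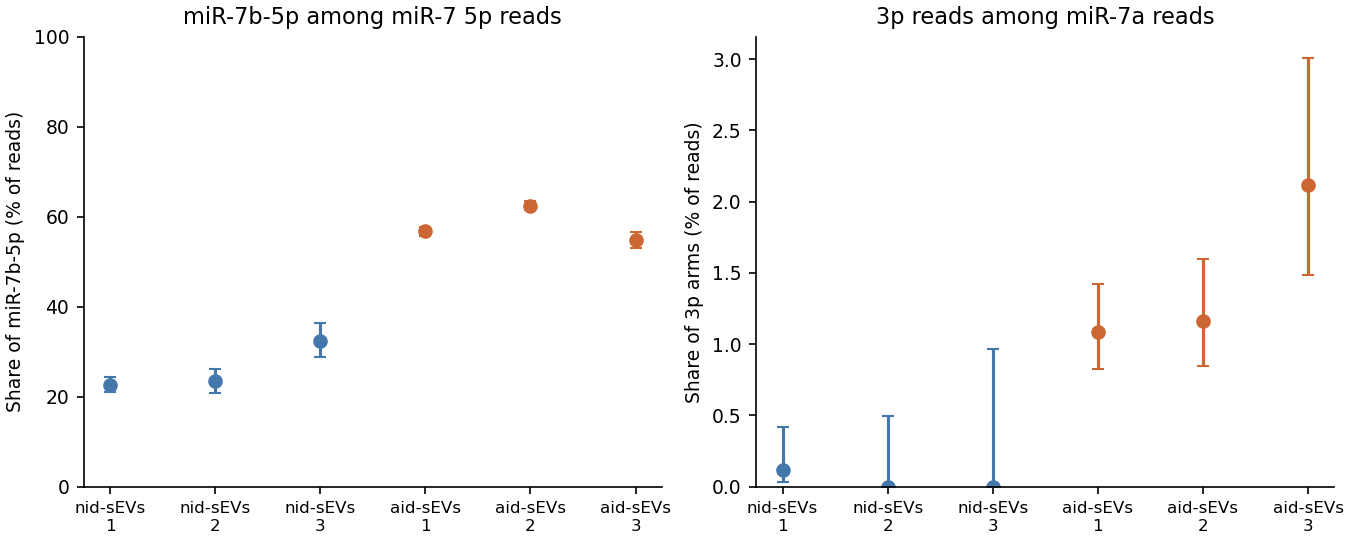
Left, share of miR-7b-5p among the reads of miR-7a-5p and miR-7b-5p in each library, in percent; right, share of the 3p arms among all miR-7a reads, in percent, for nid-sEVs (blue) and aid-sEVs (orange), with bars for 95% Wilson intervals. The miR-7b-5p share lies between 22.7% and 32.5% in nid-sEVs and between 54.9% and 62.4% in aid-sEVs, and the 3p share is at most 0.115% in nid-sEVs and at least 1.08% in aid-sEVs.

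Since miR-7a-5p and miR-7b-5p have the same seed, their summed level was taken as well. The sum was 17328, 15258 and 11517 RPM in nid-sEV replicates 1, 2 and 3 and 20737, 23739 and 25142 RPM in the aid-sEV replicates. The lowest aid-sEV sum was above the highest nid-sEV sum, as for 24.2% of all entries and 20.5% of those detected in all 6 libraries. Unlike the share, the sum depends on library scaling, and unnamed entries made up 33.4% of nid-sEV replicate 1. Scaled to named entries alone, the sum of nid-sEV replicate 1 lies above those of aid-sEV replicates 1 and 2, so the groups overlap. Reads with the miR-7 seed thus made up 1.73%, 1.53% and 1.15% of the nid-sEV libraries and 2.07%, 2.37% and 2.51% of the aid-sEV libraries. The mean sums were 14701 ± 2945 and 23206 ± 2250 RPM (SD, n = 3), a ratio of 1.58, which is given as a description. An exchange of reads between the arms in counting moves their split and leaves this sum as it is.

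Among all 718 entries ordered by mean RPM, miR-7a-5p held place 20 in nid-sEVs and place 18 in aid-sEVs, and miR-7b-5p moved from place 42 to place 17. By library, miR-7a-5p was at place 19, 20 and 19 in both groups. The places of miR-7b-5p were 40, 44 and 31 in nid-sEV replicates 1, 2 and 3 and 16, 16 and 17 in the aid-sEV replicates. Neighbours in these orders did not always differ beyond their spread. In nid-sEVs, miR-7a-5p at 10950 ± 2879 RPM stood between miR-5119 (11470 ± 5918 RPM) and miR-191-5p (10826 ± 6591 RPM), and the entries a further place away, 5_73388 (11586 ± 16133 RPM) and miR-184-3p (10708 ± 15383 RPM), had SDs above their means. Around miR-7b-5p in nid-sEVs were miR-30d-5p (3850 ± 528 RPM) and let-7i-5p (3839 ± 533 RPM) above, and miR-200a-3p (3430 ± 1954 RPM) and miR-146a-5p (3383 ± 2050 RPM) below, each nearer to miR-7b-5p than its own SD. In aid-sEVs, miR-183-5p (18632 ± 4639 RPM) and the unnamed entry 10_10553 (16987 ± 28703 RPM) came before miR-7b-5p, miR-7a-5p followed it, and let-7g-5p (8594 ± 597 RPM) and miR-29a-3p (8538 ± 2991 RPM) came next. The ranges of miR-7b-5p and miR-7a-5p did not touch in aid-sEVs, at 11764 to 14825 RPM and 8914 to 11344 RPM. These places compare read numbers, which also depend on how well each sequence is ligated and amplified.

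The 3p arms were rare. For miR-7a-2-3p, from Mir7-2, nid-sEV replicates 1, 2 and 3 held 2, 0 and 0 reads, and aid-sEV replicates 1, 2 and 3 held 40, 33 and 28 reads. In levels these were 15.5, 0 and 0 RPM in nid-sEVs and 77.0, 93.7 and 229 RPM in aid-sEVs. All aid-sEV levels lay above the highest nid-sEV floor of 59.4 RPM, and all nid-sEV libraries were under their own floor. The means were 5.16 ± 8.94 and 133 ± 83.4 RPM (SD, n = 3). With the reads of each group pooled, it had 2 of 245357 reads in nid-sEVs (8.15 RPM) and 101 of 993825 reads in aid-sEVs (102 RPM), a ratio of 12.5 with an exact 95% counting interval of 3.36 to 104. On the log2(RPM + 1) scale limma gave 5.55 (SE 1.36, adjusted p = 0.039), but this size depends on the added 1 and was 3.24 with 10 added. With 0.1 added it was 7.78, and the adjusted p of 0.076 no longer passed.

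For miR-7a-1-3p, from the intronic Mir7-1, the nid-sEV libraries held 0 reads each, and aid-sEV replicates 1, 2 and 3 held 11, 4 and 2 reads. Its aid-sEV levels of 21.2, 11.4 and 16.4 RPM (mean 16.3 ± 4.91, SD, n = 3) were under the 23.2 to 59.4 RPM that 3 reads are worth in the nid-sEV libraries. At such a level 0 reads in any single nid-sEV library are within counting error. With the reads of each group pooled, it had 0 of 245357 reads in nid-sEVs and 17 of 993825 reads in aid-sEVs (17.1 RPM), and the exact 95% counting interval of the ratio began at 1.02. It passed limma's criteria with an adjusted p of 0.020, which became 0.052 with 10 added in place of 1 and 0.50 with every library thinned to 50534 reads.

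By limma, 3 of the 4 listed arms were thus called up-regulated, where 15.6% of all entries were, and miR-7b-5p alone of them was detected in all 6 libraries. When the fit was restricted to entries detected in all libraries, miR-7b-5p was the 1 member called of the 2 tested, and 10.5% of the 219 entries were up-regulated. The count of 3 rests on nid-sEV libraries at or near 0 reads for both 3p arms. Without nid-sEV replicate 3 it was 1, where 8.5% of all entries were up-regulated. Without nid-sEV replicate 2 it was 0, where 4.6% of all entries were. In that fit, 3 members passed the fold change with an unadjusted p under 0.05 by limma. Of all 718 entries, 189 did so, counting both directions.

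The 3p reads were also set against the 5p reads of the same hairpins. Among all reads of miR-7a, the 3p arms took 2 of 1732 reads in nid-sEV replicate 1, or 0.115% (95% Wilson interval 0.0317% to 0.420%). In replicates 2 and 3 they took none, with upper Wilson limits of 0.498% and 0.968% (a count of 3 reads would be 0.391% and 0.763%). The aid-sEV replicates held 1.08% (0.824% to 1.42%), 1.16% (0.846% to 1.60%) and 2.12% (1.49% to 3.01%). All 3 aid-sEV shares were above the nid-sEV shares, but the intervals of aid-sEV replicates 1 and 2 overlapped that of nid-sEV replicate 3. This share, like that of miR-7b-5p, does not depend on library scaling. The same share was taken for 73 other hairpins with both arms listed and the larger arm detected in all 6 libraries. For 24 of them, or 32.9%, the share of the smaller arm in all 3 aid-sEV libraries exceeded that in all 3 nid-sEV libraries. It fell below for 0, so the pattern of miR-7a was shared by many hairpins. In 11 of these 24 the smaller arm was at 0 reads in every nid-sEV library. Of the 16 hairpins with both arms detected in all 6 libraries, 4 had all 3 aid-sEV shares above all 3 nid-sEV shares. The mean share of the smaller arm was higher in aid-sEVs for 6 of these 16 and lower for 10. The part of depth in the 3p shares was not tested.

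To see how unusual the split of the 5p arms was, other mature miRNAs that differ from each other by a single base outside the seed were taken, a comparison chosen after values were seen. Among the 151 named entries that were detected in all 6 libraries and matched RefSeq, there were 11 such pairs, with miR-7b-5p and miR-7a-5p as 1 of them. The difference between the log2 fold changes of the miR-7 arms, 1.98, ranked 1 of the 11. The other 10 pairs ran from 0.17 to 1.54, with a median of 0.58. Next came let-7a-5p and let-7e-5p at 1.54, followed by let-7c-5p and let-7a-5p at 1.22 and by miR-100-5p and miR-99a-5p at 1.13. At the other end were miR-10b-5p and miR-10a-5p, of the Hox clusters, with log2 fold changes of -1.43 and -1.26 and a difference of 0.17. In 5 of the 11 pairs, the miR-7 arms included, the log2 ratio of the pair did not overlap between the groups. Several pairs share a let-7 member, so they are not independent, and a wide split was not particular to miR-7.

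**Figure D3:**
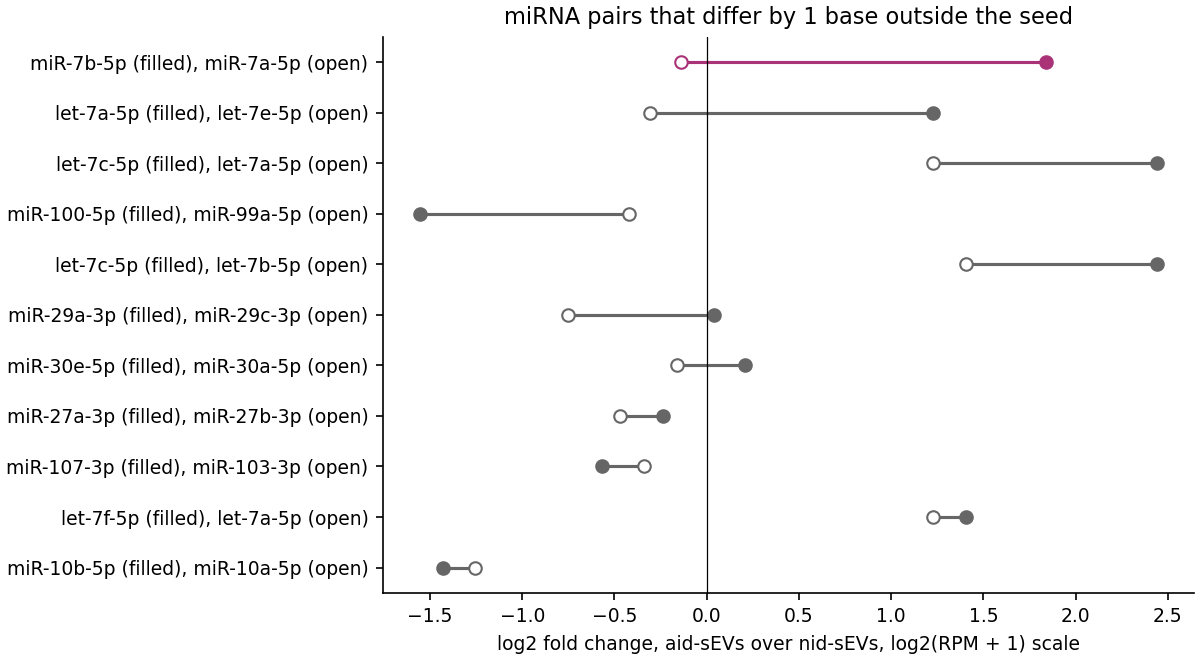
Log2 fold changes (aid-sEVs over nid-sEVs, on the log2(RPM + 1) scale) of the miRNAs in the 11 pairs that differ by 1 base outside the seed, with a filled point for the first miRNA named, an open point for the second and a line between them. The miR-7 pair at the top, in purple, has the longest line, from -0.14 to 1.84, and the lines of the other pairs span 0.17 to 1.54.

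The miRNAs whose levels ran most like those of each 5p arm were found by the root mean square difference of centred log2(RPM + 1) values over the 6 libraries, among 177 other named entries detected in all of them. For miR-7a-5p the nearest were miR-30d-5p (0.16), miR-24-3p (0.17), miR-148b-3p (0.20), miR-152-3p (0.22) and miR-23a-3p (0.24). Their log2 fold changes lay between -0.49 and 0.10. For miR-7b-5p the nearest were miR-700-3p (0.25), miR-335-3p (0.28), let-7f-5p (0.33), let-7d-5p (0.37) and let-7b-3p (0.37), with log2 fold changes from 1.41 to 1.85. Of these, let-7f-5p and let-7d-5p belong to the let-7 family, whose members are broadly expressed in differentiated tissue. The 3p arm let-7b-3p had a mean of only 38.7 RPM in nid-sEVs, within the range of their floors of 3 reads. The arms were not near each other by this measure, with a difference of 1.02 that put miR-7b-5p at place 104 in the order of miR-7a-5p and miR-7a-5p at place 69 in the order of miR-7b-5p.

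Levels relative to miR-375-3p, the best known miRNA of pancreatic endocrine cells, do not depend on library scaling. The level of miR-375-3p was 56584, 150356 and 346480 RPM in nid-sEV replicates 1, 2 and 3 and 163590, 155673 and 136424 RPM in the aid-sEV replicates, so it ran unevenly in nid-sEVs and evenly in aid-sEVs. The level of miR-7b-5p was 6.95%, 2.38% and 1.08% of that of miR-375-3p in the nid-sEV replicates and 7.19%, 9.52% and 10.1% in the aid-sEV replicates. The groups did not overlap, but nid-sEV replicate 1 came close to aid-sEV replicate 1. The log2 ratio was higher in aid-sEVs by 1.76 (SE 0.79, two-sided exact permutation p = 0.10, adjusted p = 0.15 over the 3 ratios). For miR-7a-5p the level was 23.7%, 7.77% and 2.24% of that of miR-375-3p in nid-sEVs and 5.49%, 5.73% and 8.32% in aid-sEVs. These overlapped, with a log2 ratio of -3.75 ± 1.70 in nid-sEVs and -3.97 ± 0.33 in aid-sEVs (SD, n = 3; difference -0.22, exact permutation p = 0.80, adjusted p = 0.80). Without nid-sEV replicate 1 the difference turned to 0.61.

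The other miRNAs known to be enriched in islet endocrine cells did not move as a group. Of 18 on the list, 16 were among the entries. By limma, 3 of them were up-regulated in aid-sEVs, 2 were down-regulated and 11 did not pass, where 15.6% of all entries were up-regulated and 1.81% down-regulated. Their log2 fold changes had a median of -0.12 (all entries 1.11). Of the 13 detected in all 6 libraries it was -0.64, against -0.21 for all 219 such entries. These medians are the reference for the log2 fold changes of the miR-7 5p arms as well: miR-7b-5p lay above both medians of all entries, at rank 24 of the 219 detected in all libraries, and miR-7a-5p was at rank 105.

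The members called up-regulated were miR-182-5p and miR-183-5p, which come from a shared cluster of sensory and endocrine cells, and miR-124-3p, a neuronal miRNA also made in β cells. The log2 fold change of miR-182-5p was 3.47 (SE 0.28, adjusted p = 0.0034 by limma), from 2462, 3441 and 2573 RPM in nid-sEVs to 27694, 34169 and 31472 RPM in aid-sEVs. That of miR-183-5p was 3.05 (SE 0.43, adjusted p = 0.010). For miR-124-3p it was 5.09 (SE 0.65, adjusted p = 0.0072), with 46.5, 137 and 39.6 RPM in nid-sEVs, which are few reads, and 1519, 2399 and 2895 RPM in aid-sEVs. For the third member of the cluster, miR-96-5p, the log2 value was 0.58, which did not pass. The members called down-regulated were miR-200b-3p and miR-200c-3p, of an epithelial family, by 1.68 (SE 0.44, adjusted p = 0.046) and 1.81 (SE 0.40, adjusted p = 0.030) on the log2 scale. In the same family, miR-429-3p had a log2 fold change of -2.10 (adjusted p = 0.14 by limma), which did not pass. Mean levels of miR-200a-3p and miR-141-3p were lower in aid-sEVs too, and neither was called. The log2 fold change of miR-375-3p was 0.079 (95% interval -1.44 to 1.60, adjusted p = 0.95 by limma), and that of miR-127-3p, an imprinted miRNA, was -0.32 (adjusted p = 0.47). The log2 fold change of miR-7b-5p was therefore smaller than those of all 3 up-regulated members, and the differences between them were not tested. It was also smaller than that of miR-338-3p, which was not called. The levels of miR-338-3p were 38.7, 0 and 0 RPM in nid-sEVs and 44.3, 19.9 and 57.3 RPM in aid-sEVs.

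**Figure D4:**
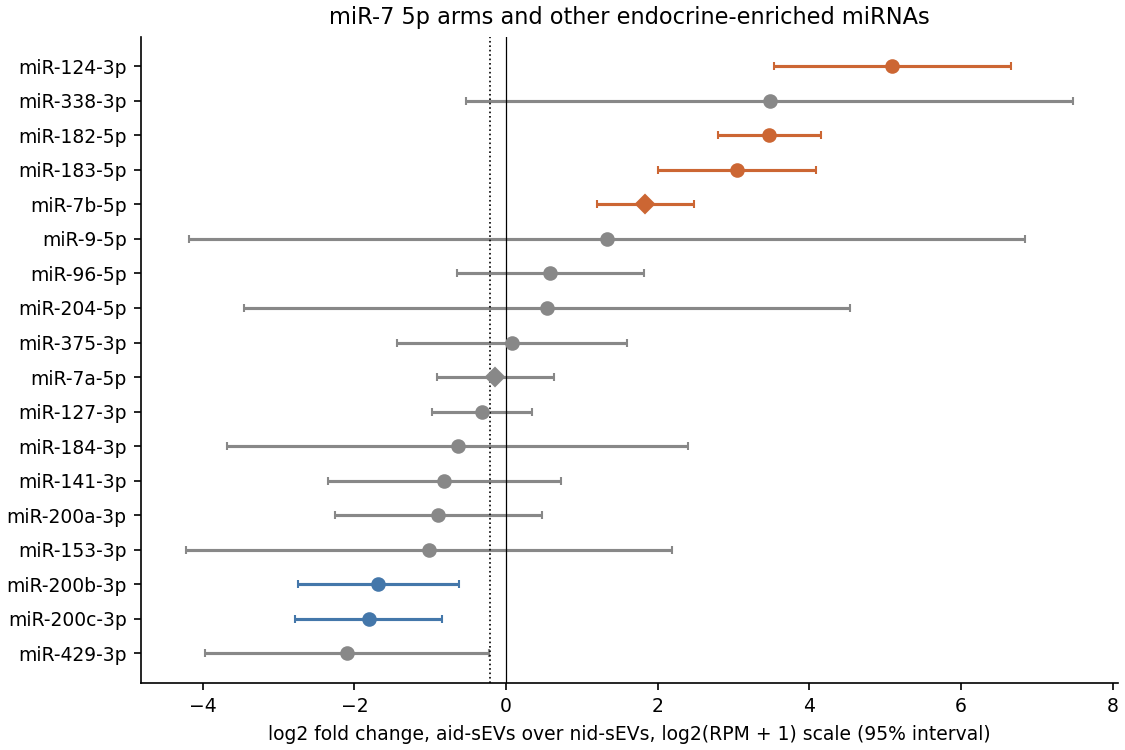
Log2 fold changes (aid-sEVs over nid-sEVs, on the log2(RPM + 1) scale) with 95% intervals by limma for the 16 listed endocrine-enriched miRNAs (circles) and the miR-7 5p arms (diamonds), in orange where up-regulated, in blue where down-regulated and in grey where not called. The dotted line is the median of the entries detected in all libraries, -0.21. The diamond of miR-7b-5p, at 1.84, stands below the 3 orange circles and the grey circle of miR-338-3p, with its interval clear of the line. That of miR-7a-5p, at -0.14, stands next to the line.

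Markers of other cells moved between the groups alongside these levels. The summed level of the red blood cell markers (3 of 3 listed) was 4215 to 8858 RPM in nid-sEVs and 372 to 1510 RPM in aid-sEVs, and that of the leukocyte markers (5 of 5) was 152 to 435 and 24.5 to 38.5 RPM. The liver marker miR-122-5p was at 396 to 3000 and 24.5 to 42.6 RPM, and none of these ranges overlapped between the groups. Acinar markers (3 of 3) were at 2533 to 8997 and 698 to 3370 RPM, mesenchymal markers (6 of 6) at 5481 to 24498 and 4571 to 11968 RPM, and endothelial markers (2 of 2) at 989 to 3717 and 679 to 1325 RPM, all with overlapping ranges. No marker was at 0 in every library of a group. The part of other cells in the miR-7 levels was not tested. The ratio of miR-7b-5p to miR-7a-5p is taken within libraries, which takes out their scaling only. The part of other cells in this ratio was not tested either.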

How the data were processed

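Small RNA was extracted from sEVs with a miRNeasy kit, and the libraries were sequenced on an Illumina NovaSeq by a company that also ran the primary analysis. The authors deposited 1 table that gives levels as RPM, scaled to the reads of each library. Their table also holds log2 columns (a fold change and a mean abundance) and p-value columns of their own comparison, which were deposited by the authors and not used here. The submitters' processing notes name fastp 0.23.0, HISAT2 2.2.1 and GRCm38, with no role or order. Mismatches allowed, the treatment of reads that match several miRNAs and the miRNA reference are not given in the sources used here.

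Division of each RPM value by that of 1 read gave whole reads for 100% of the values (tolerance 0.0001). The table held 0 further columns of per-sample values. Libraries were grouped by their labels. limma 3.58.1 (lmFit, eBayes with trend) in R 4.3.3 was fitted to log2(RPM + 1) of all 718 entries, without a filter, with Benjamini-Hochberg adjustment over the whole table. Calls required an adjusted p below 0.05 together with a change of more than 1 on the log2 scale. Since RPM values are not counts, edgeR 4.0.16 and DESeq2 1.42.0 on the recovered reads were alternatives. Ratios within libraries were compared by two-sided exact permutation tests over libraries. The scripts were tested on simulated data.

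The named entries were all miR-7 arms, an endocrine-enriched list, cell markers, the 5 entries nearest in pattern to each 5p arm and their neighbours by mean RPM. The members and lists were chosen with earlier results of these data known. The alternatives were other pseudocounts (0.1 and 10), a mean RPM of at least 10, entries detected in all libraries, TMM scaling, centring, named entries only, thinning to 50534 reads, the replicate block, and each library left out. Sequences are from RefSeq and gene positions from GENCODE M21, both on GRCm38.p6. Reads themselves were not analysed here.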

Additional observations from a re-analysis of the deposited data

How the results depend on the processing

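The log2 fold change of miR-7b-5p kept its sign in all 19 alternatives, from 1.66 to 2.34, and its call in 17. The call was lost without nid-sEV replicate 2 (1.80, adjusted p = 0.051 by limma) and with the replicate number as a block (1.84, adjusted p = 0.087). With each library left out it ran from 1.76 to 1.93. That of miR-7a-5p was not called in any alternative, and its sign turned with TMM factors (0.36), centring (0.033), edgeR's exact test (0.31) and without nid-sEV replicate 1 (0.023, in a range of -0.37 to 0.023 with each library left out). The call of miR-7a-2-3p was lost in 8 of 17 alternatives and that of miR-7a-1-3p in 6 of 15. Alternatives that gave an arm no adjusted p are not counted. For miR-7a-1-3p these include the mean RPM of at least 10, which left it out, and DESeq2. There its log2 fold change was 2.80 (SE 2.36, unadjusted p = 0.23 by DESeq2).

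Members called, 3 by limma, came to 1 with entries detected in all libraries, thinned reads or edgeR's quasi-likelihood test, and to 0 to 3 with each library left out (0 without nid-sEV replicate 2, 1 without nid-sEV replicate 3). All entries called, 125, came to 71 with a pseudocount of 10, 78 with a mean RPM of at least 10, 38 with entries detected in all libraries, 61 with thinned reads and 69 with the quasi-likelihood test, and to 34 to 176 with each library left out (34 without nid-sEV replicate 2, 72 without nid-sEV replicate 3). Endocrine-enriched miRNAs called, 5, came to 3 with TMM factors, 3 with the exact test, and 3 to 5 with each library left out. Fewer entries were tested at a mean RPM of at least 10 (516), with the quasi-likelihood test (245) and with detection in all libraries (219). The last 2 of these settings left out both 3p arms. The cause of the other changes was not tested.

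With the replicate block, limma called 0 members, 0 entries and 0 endocrine-enriched miRNAs, where 3, 187 and 5 passed the fold change with an unadjusted p below 0.05. The numbers are not stated to pair the libraries. Over 219 entries the deviations from the group means of same-numbered libraries correlated at -0.054, 0.13 and -0.11. Those of differently numbered libraries correlated at -0.20 to 0.21. With 3 libraries a group, deviations from the same mean depend on each other, so these correlations cannot settle whether the libraries were paired.

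With each library left out, the difference in log2 ratio was 1.85 to 2.21 for miR-7b-5p to miR-7a-5p, 1.12 to 2.46 for miR-7b-5p to miR-375-3p, and -1.09 to 0.61 for miR-7a-5p to miR-375-3p, with 0.61 without nid-sEV replicate 1. TMM factors moved the median of all entries from 1.11 to 1.43 and that of entries detected in all libraries from -0.21 to 0.29. Depth limits mainly the 3p arms, which held 0 to 2 reads in each nid-sEV library.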
